A study of Mus musculus with 18 samples.

Results

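Hepatocytes that expressed PGC-1a1 were compared with hepatocytes that carried the empty vector while both were exposed to the cytokine TNFalpha. The comparison used the 6 arrays whose titles name these conditions, 3 for PGC-1a1 and 3 for vector, out of 18 arrays in the series, and it covered all 15491 genes that could be named. The cells were wild-type (Wt in the array titles) primary hepatocytes of C57BL/6J mice, held in high-glucose DMEM. Both groups were infected with adenovirus for 48 hours and then given TNFalpha at 2 ng per mL for 2 hours. Every virus of the series, the vector virus included, also made GFP from a reading frame of its own, so GFP was common to both groups. The other 4 groups, each of 3 arrays, were PGC-1a4 under TNFalpha and vector, PGC-1a1 and PGC-1a4 under the PBS vehicle. Whether a group's 3 arrays stand for independent cultures or animals cannot be read from the labels. The p-values therefore reflect array-to-array spread that may be technical, and the number of arrays limits the precision. PGC-1a1 was supplied by a virus to cultured cells, and the amount of protein reached was not given in the sources used here.

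PGC-1alpha is a transcriptional coactivator that does not bind DNA by itself. It is recruited by nuclear receptors such as ERRalpha and PPARalpha and by factors such as NRF1, and it is known for raising the genes of mitochondrial respiration and, in the fasting liver, of fatty acid oxidation and glucose production together with HNF4alpha. PGC-1a1 is its full-length form and PGC-1a4 a shorter splice form. TNFalpha acts through its receptors on the kinase IKK and the transcription factor NF-kB, which raises chemokine, acute phase and survival genes in hepatocytes.

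Levels are the deposited log2 values. Each difference is PGC-1a1 minus vector under TNF on the log2 scale, ± SE with 3 arrays per group, unless another comparison is named. Each adjusted p comes from limma with Benjamini-Hochberg adjustment over the 15491 genes. A gene is called higher or lower where its adjusted p was under 0.05. A gene measured by several probe sets is represented by its brightest one.

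Under TNF, arrays within a group had r = 0.991 to 0.994 over the probe sets, and a PGC-1a1 array with a vector array at 0.967 to 0.97. The hepatocyte product albumin, Alb, read 15.66, 15.70 and 15.68 with PGC-1a1 and 15.63, 15.67 and 15.65 with vector, so the labelled cell type carried its defining transcript in all 6 arrays. The mouse gene of the coactivator itself, Ppargc1a, read 6.61, 6.38 and 6.58 with PGC-1a1 and 7.01, 6.99 and 6.44 with vector. The groups overlapped and the difference of -0.29 ± 0.16 did not pass (adjusted p = 0.15), nor did that of either other Ppargc1a probe set. Without vector array 3 the difference was -0.48 and passed. Under PBS its mean was 6.93 ± 0.07 (SD, n = 3) with PGC-1a1 and 7.21 ± 0.17 with vector. Whether these probe sets lie within the sequence that the virus carried is unknown from the labels, and they cannot serve as a check of the labels. Tnf, the gene of the cytokine added, read 7.48, 7.41 and 7.94 against 7.86, 7.91 and 7.27, and its groups overlapped as well.

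PGC-1a1 and vector cells differed under TNF in 6394 genes, 41.3% of those tested, of which 3217 (20.8%) were higher and 3177 (20.5%) lower in PGC-1a1 cells. Large differences were mostly increases. At 2-fold or more, 773 called genes were higher and 287 lower, and at 4-fold or more 144 were higher and 17 lower. The median difference over all genes was -0.03. The shares of 20.8% and 20.5% are the background for the counts of list members in this comparison. Counts in another comparison are to be read against the shares given for that comparison. PGC-1a4 cells also differed from the same vector arrays in 5184 genes (33.5%) under TNF, 3273 of the 15491 higher and 1911 lower in PGC-1a4. Under PBS the PGC-1a4 and vector groups differed in 32 genes (0.207%, with 1668 at an unadjusted p under 0.05). Main results are therefore also given as the difference between PGC-1a1 and PGC-1a4 cells under TNF, which uses no vector array. In that comparison 5647 genes were called (36.5%), 2353 higher in PGC-1a1 (15.2%) and 3294 lower (21.3%).

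**Figure D1:**
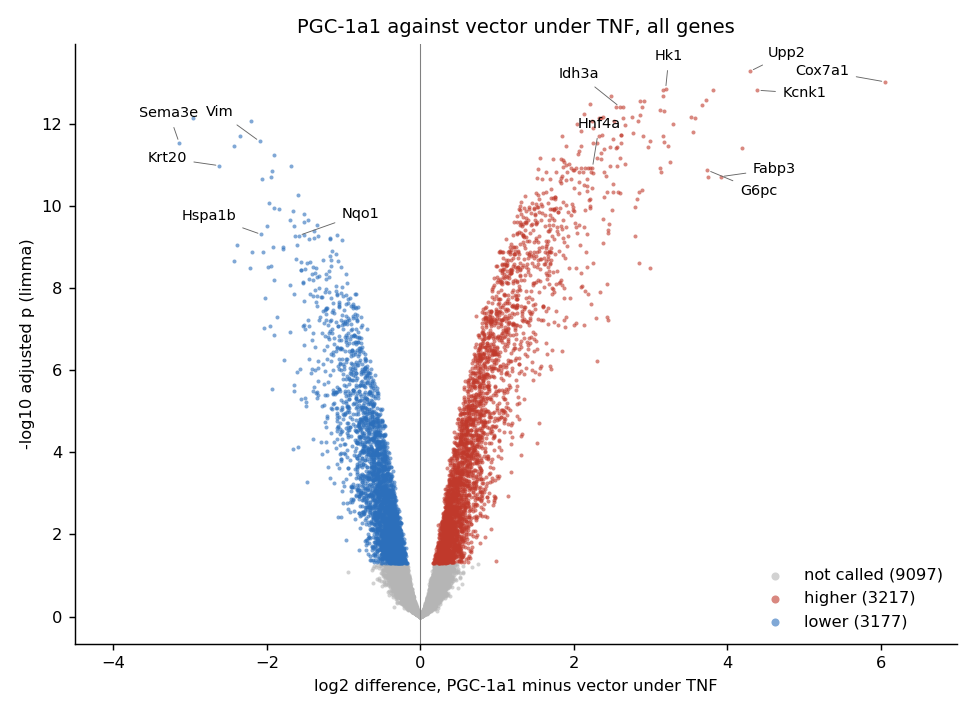
Difference between PGC-1a1 and vector cells under TNF for all 15491 genes. The x axis is the log2 difference, the y axis is -log10 of limma's adjusted p, each point is a gene, and coloured points are the 3217 higher and 3177 lower genes at an adjusted p under 0.05. Cox7a1 lies farthest to the right at 6.06, and among the labelled genes Sema3e lies farthest to the left at -3.14.

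The largest difference was that of Cox7a1, the heart and muscle isoform of a small cytochrome oxidase subunit. Its arrays read 12.70, 12.72 and 12.85 with PGC-1a1 and 6.54, 6.60 and 6.96 with vector, a difference of 6.06 ± 0.17 or 66.7-fold (adjusted p = 9.34e-14). All 3 PGC-1a1 arrays lay above all 3 vector arrays, and against PGC-1a4 the difference was 5.60 (adjusted p = 3.56e-13). Kcnk1, a potassium channel, followed with 12.58, 12.45 and 12.47 against 8.20, 7.87 and 8.26, a difference of 4.39 ± 0.13. Upp2, a uridine phosphorylase of liver, read 9.38, 9.0 and 8.97 against 4.69, 4.82 and 4.95, a difference of 4.30 ± 0.11. The vector mean of Upp2 lay below the lower quartile of the values on those arrays, where array levels respond weakly to the amount of RNA, so its 19.7-fold is uncertain in size. Aspa, which splits N-acetylaspartate, read 10.60, 10.64 and 10.67 against 6.40, 6.43 and 6.50, a difference of 4.19 ± 0.18. None of these 4 genes had overlapping groups.

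Several further genes among the highest increases handle fat. Fabp3, the fatty acid binding protein of heart, read 10.72, 10.96 and 10.98 against 6.52, 7.34 and 7.07, a difference of 3.91 ± 0.19. Its other probe set did not pass, and the mean of both differed by 1.81. Plin5, which coats lipid droplets at their contact with mitochondria, read 11.21, 11.38 and 11.55 against 7.84, 7.73 and 7.56, a difference of 3.67 ± 0.12. Decr2, a peroxisomal enzyme for unsaturated fatty acids, was higher by 3.16 ± 0.13, and Thrsp, a protein linked to fat synthesis, by 3.18 ± 0.13. Kynu and Qprt, enzymes on the route from tryptophan to NAD, were higher by 3.75 ± 0.18 and 3.12 ± 0.11. Transporters were present too. Slc16a5, a monocarboxylate carrier, was higher by 3.82 ± 0.11, although its other probe set did not pass and the mean of both gave 2.07. Atp1b1, a subunit of the sodium pump, was higher by 3.30 ± 0.12, and Slc47a1, which exports organic cations, by 3.12 ± 0.14. Each gene of this paragraph was also higher in PGC-1a1 than in PGC-1a4 cells under TNF, from 1.06 for Qprt to 4.05 for Fabp3.

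**Figure D2:**
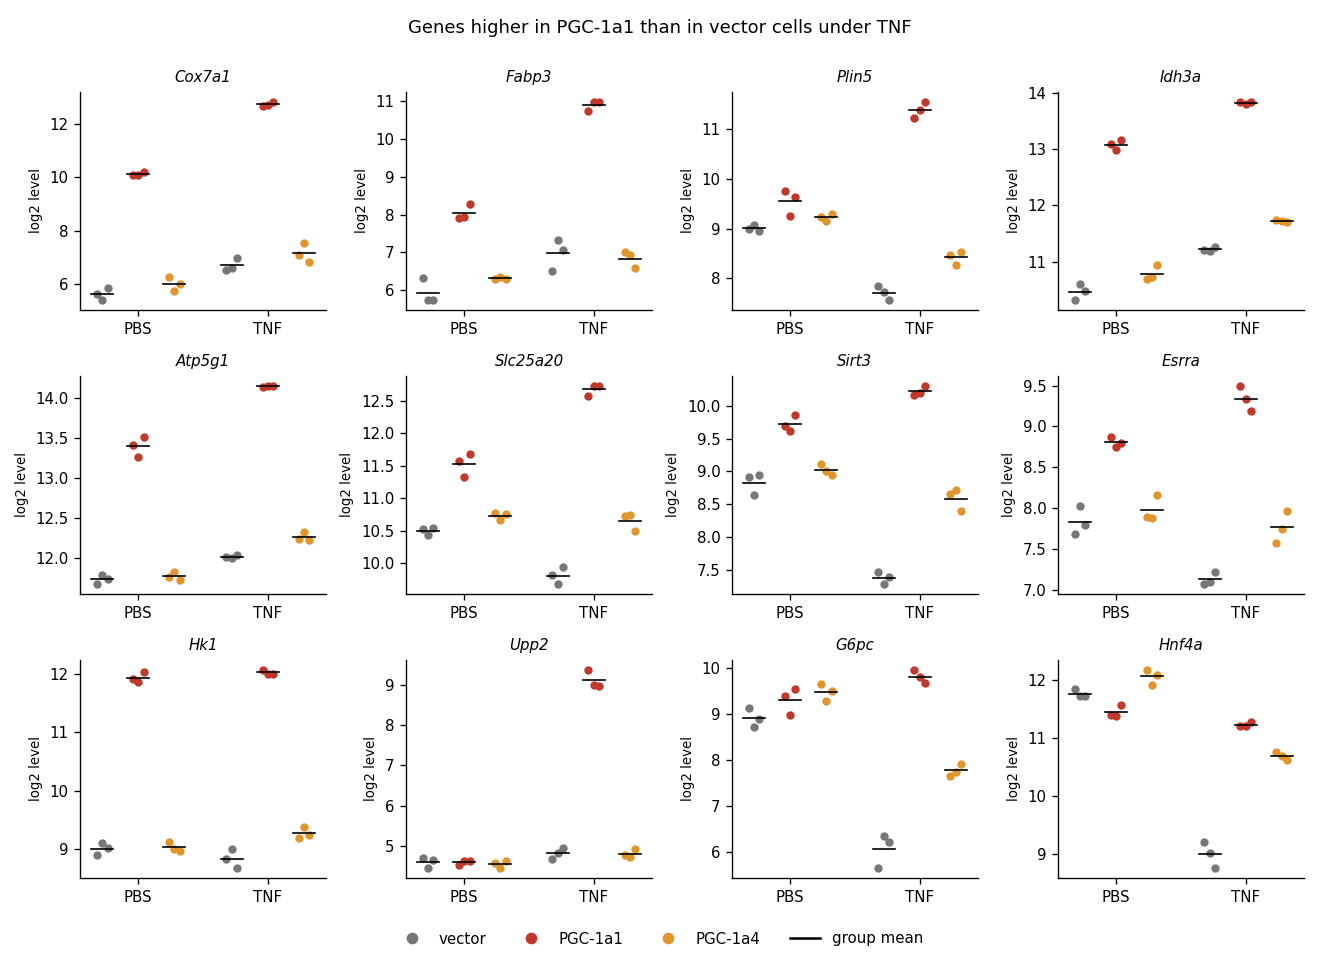
Log2 level of 12 genes in every array of the 6 groups. Points are arrays, bars are group means, the left 3 groups of each panel are PBS and the right 3 TNF, and the y axis differs between panels. In all 12 genes the 3 PGC-1a1 arrays under TNF lie above the 3 vector arrays under TNF, whereas under PBS the PGC-1a1 difference of Upp2 is 0.00 and that of Hnf4a -0.33.

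The respiratory chain, the complexes of the inner mitochondrial membrane that pass electrons to oxygen and make ATP, was higher almost throughout. Of 73 measured subunit genes 68 were higher and 2 lower, with a median difference of 1.07. In complex I, which takes electrons from NADH, 33 of 34 measured genes were higher and 0 lower. Ndufa13, at 0.11, was the gene that did not pass and is named after its value was seen. Ndufa5 read 12.63, 12.76 and 12.79 with PGC-1a1 and 11.16, 11.18 and 11.17 with vector, a difference of 1.56 ± 0.07 with no overlap. All 7 measured genes of complex II, which oxidises succinate, were higher, Sdhd by 1.73 ± 0.08 with arrays at 13.96, 13.89 and 13.95 against 12.21, 12.19 and 12.21. In complex III with cytochrome c 9 of 11 were higher and 1 lower. Uqcr10 differed by 1.33 ± 0.08 and the electron carrier Cycs by 1.16 ± 0.08, and the lower member was the assembly factor Uqcc2, at -0.43 ± 0.10.

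Complex IV, the cytochrome oxidase, had 10 of 13 measured genes higher and 2 lower. Cox5a differed by 1.02 ± 0.07 and Cox8a by 0.96 ± 0.07. The lower genes were Cox4i2, an isoform of lung, at -0.33 ± 0.09, and Cox6a2, the heart and muscle isoform of another subunit, at -0.27 ± 0.10. Cox7a1 and Cox6a2, both muscle isoforms, thus lay on opposite sides. The call of Cox4i2 was lost without PGC-1a1 array 3, at -0.24. That of Cox6a2 was lost without vector array 2 or 3, at -0.27 and -0.24, and without PGC-1a1 array 2 or 3, at -0.22 and -0.23. All 17 measured genes of ATP synthase were higher, and Atp5g1, which encodes a ring subunit, read 14.14, 14.16 and 14.15 against 12.01, 12 and 12.03, a difference of 2.14 ± 0.07. Among assembly factors 8 of 10 for complex I and 13 of 15 for complex IV were higher, with Ndufaf5 at 2.30 ± 0.10 and the copper chaperone Cox11 at 2.52 ± 0.09, and 1 of the latter, Cox18, was lower at -0.35 ± 0.09. Coenzyme Q synthesis had 8 of 11 higher and 1 lower (2 without vector array 2). Against PGC-1a4 under TNF 67 of the 73 subunit genes were higher and 1 lower, with a median of 0.89.

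NRF1 and the ERR receptors are known partners of PGC-1alpha, so the promoters of these genes were read for their letters. The 250 bases before the start of transcription in the RefSeq table (build GRCm38.p6, available for 12262 of the measured genes) were searched on both strands for 6 motifs, chosen with results known: TNAAGGTCA of ERR, GCGC then any base then TGCGC for NRF1, CCGGAAGT of the ETS family, TGACGTCA of CREB, GGGA then any base then TTTCC for NF-kB and TGATGCAA of ATF4. The NRF1 letters stood in 13 of 69 respiratory chain genes with a window (18.8%), in 9.32% of the genes higher under TNF, in 8.06% of those lower and in 7.2% of all. They also stood in 3 of 9 heat shock genes with a window (33.3%), a list that was mostly lower, and in 3 of 26 genes of the TCA cycle and fatty acid oxidation (11.5%), which were mostly higher. The ERR letters stood in 1.45%, 0.682%, 1.03% and 1.08% of the first 4 sets and in 0 of the 26 TCA cycle and fatty acid oxidation genes, and the ETS letters in 2.9%, 7.88%, 4.09% and 5.15%. Over those 4 sets the CREB letters stood in 5.8%, 3.07%, 2.58% and 2.58%, the NF-kB letters in 0.0%, 0.568%, 0.556% and 0.497%, and the ATF4 letters in 0.0%, 0.682%, 0.715% and 0.701%. At least 12 of the 13 respiratory chain genes with NRF1 letters were higher in PGC-1a1 cells. The direction of the remaining gene is not given here. The stretches of the 6 with the highest differences among the 12 are shown to place the letters beside the genes they precede. Those of Timm8b and Tank are shown as well. They are the 2 that hold the ERR letters among 244 higher genes admitted by the naming rule with a window. Over all genes the ERR letters stood in 132 of 12262, so they were not more frequent among the named higher genes. Each reads 5′ to 3′ on the strand of the letters, which are in capitals, with up to 10 bases on either side.
Sdhd, chr9:50603909-50603938, plus strand: cgctgccaccGCGCGTGCGCaccccagcga
Ndufa5, chr6:24527697-24527726, plus strand: aggtagatttGCGCCTGCGCagctcacaca
Ndufa8, chr2:36049349-36049378, minus strand: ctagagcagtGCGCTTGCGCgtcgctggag
Sdha, chr13:74350241-74350260, plus strand: GCGCTTGCGCaccgagtcgc
Atp5k, chr5:108434430-108434459, plus strand: agccagaaagGCGCATGCGCcgcagtgaaa
Atp5c1, chr2:10080433-10080459, plus strand: actcagtGCGCGTGCGCgggagctcag
Timm8b, chr9:50603795-50603823, plus strand: tttcgagggcTCAAGGTCActctacaacc
Tank, chr2:61592908-61592936, minus strand: gtcatttgttTAAAGGTCActtcagtgtc

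A match to these letters is a description and not a measured binding site. A gene counted where any of its windows held the letters, with 15469 windows for the 12262 genes. Sdhd and Timm8b, a small chaperone of mitochondrial import, are neighbours that run away from each other on chromosome 9 with 51 bases between their starts. The NRF1 letters before Sdhd lie inside the RefSeq span of Timm8b, and the ERR letters before Timm8b inside that of Sdhd. The stretches shown for Tank and Atp5c1 overlap the RefSeq span of their own gene. Timm8b read 12.16, 12.18 and 12.15 with PGC-1a1 and 10.74, 10.94 and 10.98 with vector, a difference of 1.27 ± 0.09, so both members of the pair were higher. Of the other genes shown, Ndufa8 differed by 1.48 ± 0.08, Sdha by 1.32 ± 0.08, Atp5k by 1.29 ± 0.07 and Atp5c1 by 1.25 ± 0.08. Tank, an adaptor of NF-kB signalling, was higher by 0.57 ± 0.11 on the brightest of its probe sets, while the other was lower and the mean of both, at 0.05, did not pass.

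**Figure D3:**
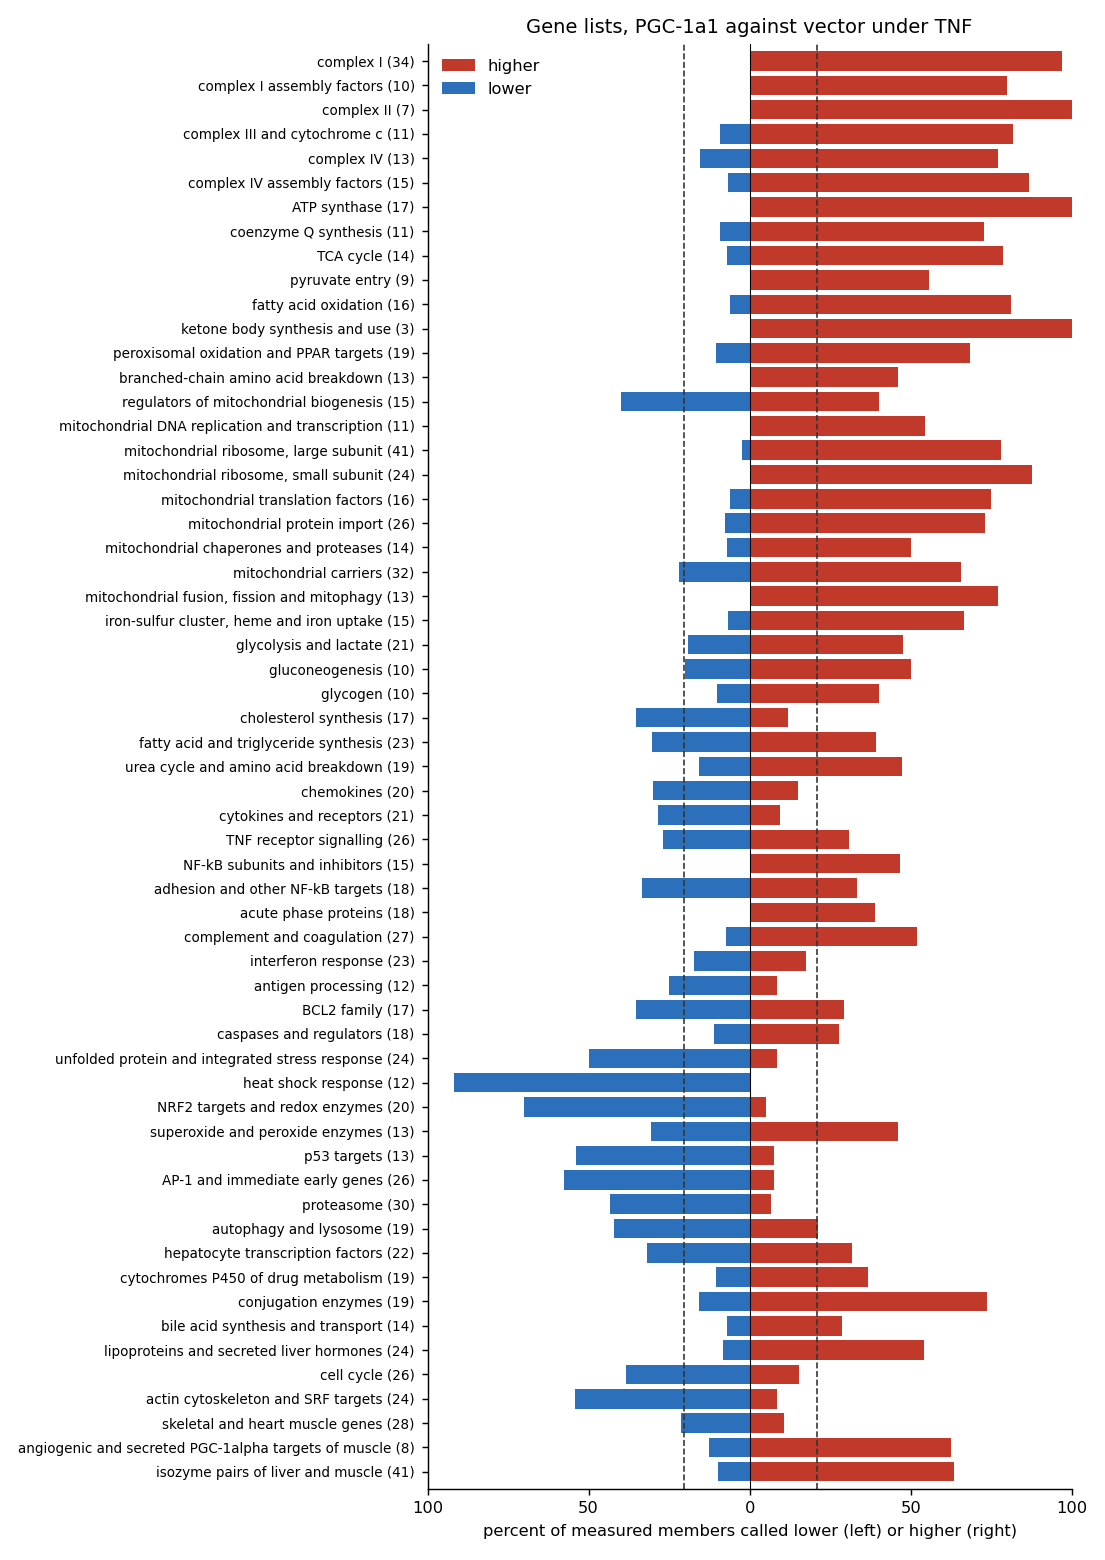
Share of the measured members of each gene list that were higher (right) or lower (left) in PGC-1a1 than in vector cells under TNF at an adjusted p under 0.05. The x axis is percent of measured members, numbers in brackets are measured members, and dashed lines mark the shares over all genes, 20.8% higher and 20.5% lower. The respiratory chain lists lie beyond the dashed line on the right, and the heat shock and NRF2 lists beyond that on the left.

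Fuel oxidation upstream of the chain was mostly higher. Of 14 measured genes of the TCA cycle, which oxidises acetyl units, 11 were higher and 1 lower, with a median of 1.24. Against PGC-1a4 under TNF 11 were higher and 1 lower, and PGC-1a4 had 5 higher and 2 lower against the same vector arrays. Idh3a, the catalytic subunit of the NAD-linked isocitrate dehydrogenase, read 13.83, 13.79 and 13.84 against 11.21, 11.19 and 11.27, a difference of 2.60 ± 0.09. Citrate synthase, Cs, read 13.47, 13.42 and 13.44 against 11.30, 11.17 and 11.24, a difference of 2.21 ± 0.07. Neither gene had overlapping groups, and the lower member was Suclg2, at -0.24 ± 0.08. That call was lost without vector array 1 or 3 or PGC-1a1 array 1, at -0.22, -0.23 and -0.21. Among 9 genes of pyruvate entry 5 were higher and 0 lower, with the dehydrogenase genes Dlat at 1.46 ± 0.09 and Pdha1 at 1.42 ± 0.09. Pdk4, a kinase that switches this enzyme off, read 10.59, 10.51 and 10.40 against 10.44, 10.32 and 10.10, with overlapping groups and a difference of 0.21 ± 0.11 that did not pass.

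Mitochondrial fatty acid oxidation had 13 of 16 measured genes higher and 1 lower, with a median of 1.12. Against PGC-1a4 under TNF 9 of the 16 were higher and 1 lower, with a median of 0.80. PGC-1a4 itself had 11 higher and 0 lower against the same vector arrays, with a median of 0.52. Slc25a20, which carries acylcarnitines into the matrix, read 12.57, 12.72 and 12.73 against 9.82, 9.68 and 9.94, a difference of 2.86 ± 0.10 with no overlap. The gateway enzyme Cpt1a was higher by 1.85 ± 0.11, Cpt2 by 1.77 ± 0.10 and the long-chain dehydrogenase Acadvl by 2.12 ± 0.10. Eci1, which handles double bonds, was the lower member at -0.88 ± 0.07, with arrays at 10.50, 10.46 and 10.53 against 11.38, 11.38 and 11.35. Of 19 peroxisomal genes and PPAR targets 13 were higher and 2 lower. Against PGC-1a4 that list had 9 higher and 2 lower, and PGC-1a4 had 9 higher and 1 lower against the same vector arrays. The fatty acid translocase Cd36 differed by 2.34 ± 0.19 and the pantetheinase Vnn1 by 2.85 ± 0.15, while catalase, Cat, was lower at -0.51 ± 0.12. The lower members of that list numbered 1 without vector array 2 or 3 or PGC-1a1 array 2, and 4 without PGC-1a1 array 1. All 3 measured ketone body genes were higher, and breakdown of branched-chain amino acids had 6 of 13 higher and 0 lower.

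The machinery that expresses and maintains mitochondria followed in part. Of 65 measured mitochondrial ribosomal proteins 53 were higher and 1, Mrpl24 at -0.31 ± 0.10, was lower, with a median of 0.62. Against PGC-1a4 under TNF 46 of the 65 were higher and 2 lower, with a median of 0.51. The call of Mrpl24 was lost without vector array 2 or PGC-1a1 array 1, at -0.29 and -0.28. Translation factors had 12 of 16 higher and 1 lower, protein import 19 of 26 higher and 2 lower, and the carriers of the inner membrane 21 of 32 higher and 7 lower. The lower import genes numbered 1 without vector array 1 or 3 or PGC-1a1 array 1 or 3. Fusion and fission genes had 10 of 13 higher and 0 lower, with the mitofusins Mfn1 at 1.74 ± 0.16 and Mfn2 at 1.60 ± 0.08. For mitochondrial DNA upkeep 6 of 11 were higher and 0 lower. The helicase Twnk differed by 1.38 ± 0.09, and the DNA packaging factor Tfam read 12.14, 12.11 and 12.16 against 11.21, 11.23 and 11.25, a difference of 0.90 ± 0.09.

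The regulators of mitochondrial biogenesis did not move together, with 6 of 15 higher and 6 lower. Sirt3, a mitochondrial deacetylase, read 10.17, 10.19 and 10.31 against 7.47, 7.28 and 7.39, a difference of 2.84 ± 0.10. Esrra, the gene of ERRalpha, read 9.50, 9.33 and 9.19 against 7.07, 7.10 and 7.22, a difference of 2.21 ± 0.12. Ppara read 9.19, 9.14 and 9.32 against 7.80, 7.12 and 7.12, a difference of 1.87 ± 0.17. In none of these 3 did the groups overlap. No lower member went below -0.60.

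Genes of glucose use shifted unevenly. Hk1, the hexokinase of brain and many other tissues, read 12.08, 12 and 12.01 with PGC-1a1 and 8.83, 9.0 and 8.67 with vector, a difference of 3.20 ± 0.09 with no overlap. Hk2, the hexokinase typical of muscle, was lower at -0.68 ± 0.11. Pfkp, the platelet form of phosphofructokinase, was higher by 2.24 ± 0.11, and Ldhb, the lactate dehydrogenase subunit of heart, by 2.60 ± 0.13. The glucose transporter Slc2a1 was lower at -0.74 ± 0.10. In all, 10 of 21 glycolysis and lactate genes were higher and 4 lower, the latter 2 without vector array 3 and 2 without PGC-1a1 array 1.

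Both enzymes at the ends of the glucose production pathway were among the largest increases. Pck1, which commits carbon to glucose synthesis, read 8.65, 8.82 and 8.88 against 5.09, 5.22 and 4.88, a difference of 3.72 ± 0.12. Its vector mean fell below the arrays' lower quartile, and its other probe set did not pass. G6pc, which releases free glucose, read 9.96, 9.79 and 9.66 against 5.64, 6.35 and 6.20, a difference of 3.74 ± 0.17. The groups did not overlap in either gene. Slc37a4, the transporter that works with G6pc, was higher by 1.14 ± 0.11. Over the 10 gluconeogenesis genes measured 5 were higher and 2 lower, and none was lower without vector array 1 (0) or PGC-1a1 array 1 (0). That list had 2 higher and 4 lower against PGC-1a4. Ppp1r3b, which directs a phosphatase to glycogen, was higher by 3.26 ± 0.15, among 4 higher and 1 lower of 10 glycogen genes. The glycogen list had 2 higher and 4 lower against PGC-1a4, and PGC-1a4 had 6 higher and 0 lower against the same vector arrays.

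Lipid synthesis was mixed, with 9 of 23 fatty acid and triglyceride genes higher and 7 lower. Fasn, the fatty acid synthase, was lower at -1.06 ± 0.10 and its regulator Srebf1 at -0.66 ± 0.07. Dgat1 and Agpat2, which build triglycerides, were higher by 2.05 ± 0.09 and 1.98 ± 0.11. Acacb, the acetyl-CoA carboxylase of mitochondria, was higher by 2.32 ± 0.08 on its brightest probe set but lower on its other one. Cholesterol synthesis had 2 of 17 higher and 6 lower, with the squalene synthase Fdft1 at -0.90 ± 0.10. Against PGC-1a4 the fatty acid and triglyceride list had 8 higher and 10 lower, and the cholesterol list 0 higher and 8 lower.

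Genes of liver identity and secretion were divided. Hnf4a, a master regulator of hepatocytes, read 11.21, 11.21 and 11.27 with PGC-1a1 and 9.20, 9.01 and 8.75 with vector, a difference of 2.24 ± 0.10 with no overlap, and its other 2 probe sets were higher too. The drug sensor Nr1i2 was higher by 1.87 ± 0.12, and Onecut2, a liver and bile duct factor, was lower at -1.62 ± 0.11. In all, 7 of 22 hepatocyte transcription factors were higher and 7 lower. Conjugation enzymes had 14 of 19 higher and 3 lower, with the estrogen sulfotransferase Sult1e1 at 2.07 ± 0.10. Drug-metabolising P450 genes had 7 of 19 higher and 2 lower, and the first count was 3 without vector array 3. Complement and coagulation genes had 14 of 27 higher and 2 lower (8 higher after quantile normalization within the TNF arrays), with clotting factor F10 at 2.18 ± 0.15. Lipoproteins and secreted hormones had 13 of 24 higher and 2 lower. Against PGC-1a4 under TNF conjugation enzymes had 4 higher and 5 lower, P450 genes 1 higher and 2 lower, complement and coagulation 3 higher and 9 lower and lipoproteins and hormones 3 higher and 8 lower. PGC-1a4 itself was higher than the same vector arrays in 11, 6, 22 and 16 members of these lists in the same order. Among secreted hormones Fst, which encodes the activin antagonist follistatin, read 7.38, 7.78 and 7.53 against 10.13, 9.84 and 10.01, a difference of -2.43 ± 0.10.

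The genes of the response to TNFalpha were divided in direction. Of 20 measured chemokines 3 were higher and 6 lower, of 21 cytokines and receptors 2 were higher and 6 lower, and of 26 genes of TNF receptor signalling 8 were higher and 7 lower, against 20.8% and 20.5% over all genes. The higher cytokine and receptor genes numbered 1, 1 and 1 without vector array 1, 2 or 3, 1 without PGC-1a1 array 2 and 0 without PGC-1a1 array 3. Of the TNF receptor signalling genes 5 were higher without vector array 3 and 5 without PGC-1a1 array 3, and 4 were lower without vector array 1 and 4 without vector array 2. After quantile normalization over all arrays 3 were higher. Cxcl3, a neutrophil attractant, read 6.26, 7.37 and 7.74 against 8.65, 8.67 and 8.48, a difference of -1.48 ± 0.29. Cxcl11, a T-cell attractant, was higher by 1.18 ± 0.19. The receptor gene Tnfrsf1a was higher by 0.48 ± 0.08 and Rbck1, of the ubiquitin ligase that acts on the receptor complex, by 0.91 ± 0.08. Among 15 NF-kB subunits and regulators 7 were higher and 0 lower. Nfkbia, the inhibitor IkappaBalpha, read 13.76, 13.86 and 13.69 against 12.13, 12.12 and 12.14, a difference of 1.64 ± 0.10 on its brightest probe set. None of its other 3 probe sets passed, and the mean of all 4 differed by 0.42. Bcl3, an atypical member of the inhibitor family, was higher by 1.04 ± 0.08. Without PGC-1a1 array 3, 1 gene of this list was lower. Against PGC-1a4 chemokines had 1 higher and 9 lower, cytokines and receptors 1 higher and 10 lower, TNF receptor signalling 1 higher and 10 lower and the NF-kB list 4 higher and 7 lower.

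NF-kB targets outside the chemokines had 6 of 18 higher and 6 lower. Sod2, the mitochondrial superoxide dismutase, read 13.51, 13.46 and 13.60 against 11.88, 11.84 and 11.84, a difference of 1.67 ± 0.13 with no overlap. The adhesion receptor Vcam1 was lower at -0.88 ± 0.12 and the early response gene Ier3 at -0.95 ± 0.13. On its probe set of largest variance Vcam1 did not pass, at -0.60. Of 18 acute phase proteins 7 were higher and 0 lower, with haptoglobin, Hp, at 0.78 ± 0.11 and Crp at 0.64 ± 0.13. The lower acute phase genes were 1 without vector array 1, 1 without vector array 3 and 3 without PGC-1a1 array 1. Against PGC-1a4 the list had 1 higher and 11 lower. Both genes lay lower there, Hp at -0.96 (adjusted p = 1.64e-06) and Crp at -1.30 (adjusted p = 5.19e-07). Interferon response genes had 4 of 23 higher and 4 lower against vector (7 lower without vector array 3, 2 without vector array 2 and 2 without PGC-1a1 array 3), and 0 higher and 17 lower against PGC-1a4.

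Survival and death genes were found on both sides. Of 17 measured members of the BCL2 family 5 were higher and 6 lower. Bik, a BH3-only promoter of cell death, read 9.52, 9.89 and 9.93 against 7.22, 7.05 and 6.08, a difference of 3.0 ± 0.21. The pore former Bak1 was higher by 1.20 ± 0.11, while Bid, which links death receptors to mitochondria, was lower at -1.02 ± 0.10. On the probe set of largest variance neither Bak1 nor Bid passed, at 0.22 and -0.36. The protective Bcl2l1 read 10.17, 10.18 and 10.29 against 11.03, 10.93 and 11.10, a difference of -0.80 ± 0.12 with no overlap. Of 18 caspases and regulators 5 were higher and 2 lower, with the executioner Casp6 at 2.24 ± 0.09. The 5 became 3 without vector array 3 and 3 without PGC-1a1 array 3.

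In the heat shock response 11 of 12 measured genes were lower and 0 higher, with a median of -0.82. Hsph1, a large chaperone, read 11.69, 11.60 and 11.53 with PGC-1a1 and 13.21, 13.20 and 13.21 with vector, a difference of -1.60 ± 0.08. Hspa1b, an inducible HSP70, read 12.63, 12.51 and 12.33 against 14.57, 14.61 and 14.50, a difference of -2.07 ± 0.13. Neither gene had overlapping groups, but Hspa1b has a near-identical copy, so which of both its probes report is uncertain. Hspb1 differed by -1.18 ± 0.07, Dnajb1 by -1.17 ± 0.08 and the constitutive Hspa8 by -0.85 ± 0.07. Against PGC-1a4 under TNF 7 of the 12 were lower, with a median of -0.34, and for Hspa1b the difference of 0.19 did not pass (adjusted p = 0.272). PGC-1a4 cells differed from the same vector arrays by -2.26 in Hspa1b and by -1.27 in Hsph1.

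Targets of the oxidant sensor NRF2 and related redox enzymes were lower in 14 of 20 and higher in 1, with a median of -0.66. Nqo1, a quinone reductase, read 8.22, 8.14 and 8.44 against 9.78, 9.84 and 9.95, a difference of -1.59 ± 0.10 with no overlap. The cystine importer Slc7a11 differed by -1.50 ± 0.11 and the glutathione synthesis gene Gclm by -1.27 ± 0.09. Against PGC-1a4 under TNF 17 of the 20 were lower, with a median of -0.76, and Nqo1 differed by -1.86 (adjusted p = 1.5e-10). Immediate early genes had 15 of 26 lower and 2 higher, with the AP-1 subunit Fosl1 at -1.53 ± 0.12 and Klf6 at -1.0 ± 0.08, while Klf4 was higher by 0.93 ± 0.08. The unfolded protein and integrated stress response had 12 of 24 lower and 2 higher, with the endoplasmic reticulum enzyme Pdia4 at -1.93 ± 0.09. Against PGC-1a4 the same list had 4 higher and 7 lower with a median of 0.11, opposite in sign to its median of -0.23 against vector, and PGC-1a4 had 13 lower and 1 higher against the same vector arrays. The immediate early list had 5 higher and 11 lower against PGC-1a4, with a median of -0.10. PGC-1a4 had 14 lower and 0 higher of that list against the same vector arrays. Proteasome genes had 13 of 30 lower and 2 higher, and p53 targets 7 of 13 lower and 1 higher. Against PGC-1a4 the proteasome list had 4 higher and 11 lower, and the p53 list 1 higher and 8 lower. Without vector array 3 the higher proteasome genes were 1.

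**Figure D4:**
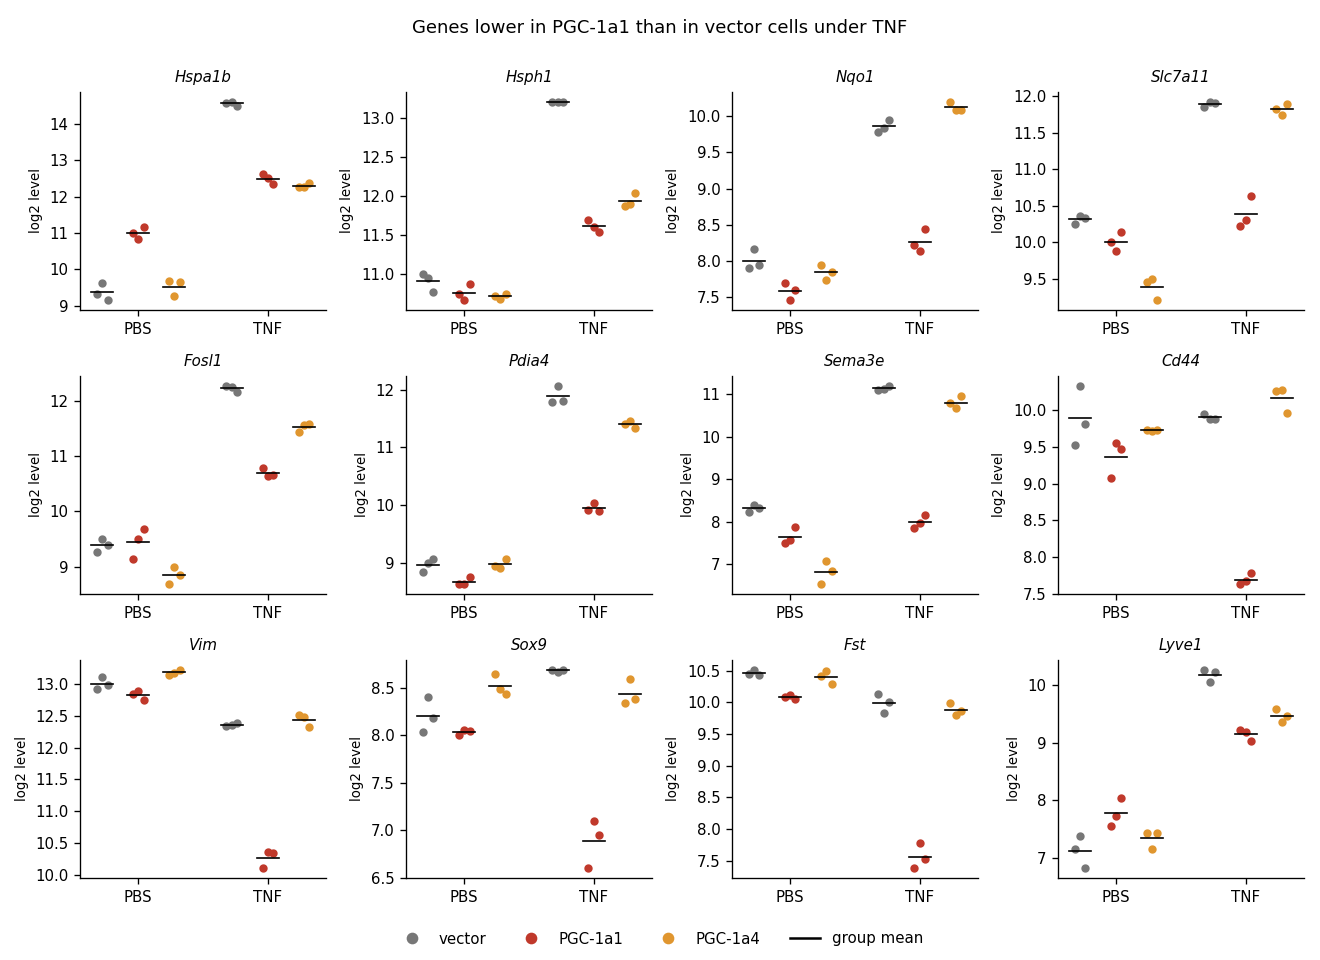
Log2 level of 12 genes that were lower in PGC-1a1 than in vector cells under TNF, in every array of the 6 groups. Points are arrays, bars are group means, the left 3 groups of each panel are PBS and the right 3 TNF, and the y axis differs between panels. In all 12 genes the 3 PGC-1a1 arrays under TNF lie below the 3 vector arrays under TNF, and PGC-1a4 differed from vector under TNF by -2.26 in Hspa1b and 0.08 in Vim.

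The largest decrease among the named genes was in Sema3e, a secreted guidance cue, which read 7.86, 7.97 and 8.17 against 11.10, 11.13 and 11.21, a difference of -3.14 ± 0.13 with its 3 other probe sets lower too. Speer4a, at -2.96 ± 0.11, belongs to a family of near-identical genes and its PGC-1a1 mean lay below the lower quartile, so its identity and size are uncertain. Krt20, a keratin of the gut lining, differed by -2.62 ± 0.12, and Lrp8, a receptor for apolipoprotein E and reelin, by -2.35 ± 0.09. Cd44, the hyaluronan receptor, read 7.63, 7.67 and 7.78 against 9.95, 9.89 and 9.89, a difference of -2.22 ± 0.16. Vim, an intermediate filament of mesenchymal and cultured cells, read 10.10, 10.36 and 10.34 against 12.34, 12.36 and 12.38, a difference of -2.09 ± 0.08. Neither of these 2 genes had overlapping groups. The keratins of hepatocytes, Krt8 and Krt18, differed by -0.84 ± 0.07 and -0.84 ± 0.07, and of 24 genes of the cytoskeleton and SRF targets 13 were lower and 2 higher. The latter count was 1 without vector array 1, 2 or 3 and likewise 1 without PGC-1a1 array 2 or 3. Against PGC-1a4 17 of that list were lower and 0 higher, with Vim at -2.18.

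Markers of other liver cells moved with these decreases. Of 33 measured markers of Kupffer, stellate, sinusoidal, bile duct and lymphoid cells 16 were lower and 1 higher in PGC-1a1 cells, with a median of -0.33. Against PGC-1a4 under TNF 5 of them were lower and 1 higher, with a median of -0.11, beside the 21.3% of all genes that were lower there. None of the stellate or sinusoidal markers was lower in that comparison, and the summed stellate level of PGC-1a4 arrays, 10.69 to 10.71, overlapped that of PGC-1a1 arrays. The lower ones were 2 Kupffer and 3 bile duct markers. The summed Kupffer and bile duct levels of PGC-1a4 arrays, 11.85 to 11.91 and 10.01 to 10.16, lay above those of PGC-1a1 arrays without overlap. The bile duct factor Sox9 differed by -1.80 ± 0.12, the collagen Col3a1 by -1.03 ± 0.11 and the sinusoidal receptor Lyve1 by -1.03 ± 0.14. The log2 of the summed linear level ran from 11.32 to 11.43 in PGC-1a1 arrays and from 11.58 to 11.77 in vector arrays for the 6 Kupffer markers. For the 10 stellate markers it ran from 10.62 to 10.71 in PGC-1a1 arrays and from 11.16 to 11.39 in vector arrays. For the 7 sinusoidal markers it ran from 10.41 to 10.62 in PGC-1a1 arrays and from 11.07 to 11.24 in vector arrays. In all 3 lists the groups did not overlap. The same held for the 5 bile duct markers, from 9.29 to 9.45 in PGC-1a1 arrays and from 10 to 10.30 in vector arrays, and the 5 lymphoid markers, from 9.52 to 9.72 in PGC-1a1 arrays and from 9.81 to 9.91 in vector arrays. Of the 5 lymphoid markers only 1 was called lower, near the 20.5% of all genes. For the 4 measured of 10 listed hepatocyte markers it ran from 16.14 to 16.18 in PGC-1a1 arrays and from 16.05 to 16.10 in vector arrays. Alb made up much of this sum and lay close to the highest values on these arrays, 15.95 to 15.98. Only 1 of the 4, Hnf4a, was called, so the sum is no measure of hepatocyte content. Under PBS 3 of the 33 markers were higher and 1 lower, with a median of 0.02, beside 7.88% and 4.11% of all genes. There the sinusoidal sum lay higher in PGC-1a1 than in vector arrays (10.29 to 10.40 against 10.04 to 10.16). The stellate sum lay lower (11.16 to 11.39 against 11.45 to 11.53), and the Kupffer, bile duct and lymphoid sums overlapped. Fewer cells of a type and less RNA per cell cannot be told apart in these bulk samples, and the part of such cells in the decreases of Vim, Cd44 or the cytoskeletal genes was not tested. Genes of skeletal and heart muscle did not follow Cox7a1 and Fabp3 as a list, with 3 of 28 higher and 6 lower (3 lower without vector array 2).

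Fewer genes separated PGC-1a1 from vector cells under PBS. There 1857 were called (12%), 1220 higher (7.88%) and 637 lower (4.11%), a share of 65.7% higher among the calls that became 53.8% after quantile normalization over all arrays and 52.3% after cyclic loess. The comparisons under TNF and PBS share no array. Of the 1220 genes higher under PBS 917 were also higher under TNF, 75.2% of the former and 28.5% of the 3217 higher under TNF. Of the 637 lower under PBS 294 were also lower under TNF, 46.2% of the former and 9.25% of the 3177 lower under TNF. The count of genes lower under PBS rests on single arrays, being 344 without PGC-1a1 array 1 and 413 without vector array 3, and it was 1173 after quantile normalization over all arrays. The interaction, which tests the difference under TNF minus that under PBS, called 3943 genes (25.5%), 2083 upward (13.4%) and 1860 downward (12%). The TNF and PBS arrays also differ as sets, with array medians of 7.04 to 7.10 and 7.24 to 7.32, and the sources used here do not say whether they were normalized together, so treatment and array set cannot be told apart in the interaction.

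**Figure D5:**
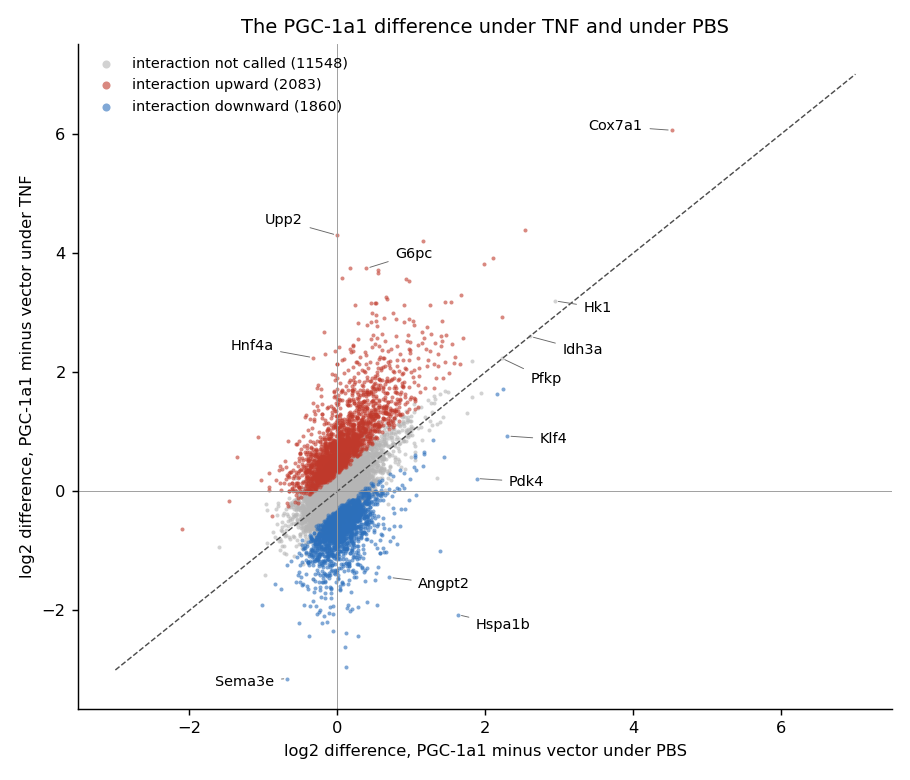
Log2 difference between PGC-1a1 and vector cells under PBS (x axis) and under TNF (y axis) for all 15491 genes. Each point is a gene, coloured points are the 3943 genes called by the interaction, and the dashed line marks equal differences. Idh3a lies on the line with 2.60 under both, Upp2 lies above it and Hspa1b below it.

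For some mitochondrial and glycolytic genes the interaction did not pass. Idh3a differed by 2.60 under TNF and by 2.60 under PBS (interaction 0.00, adjusted p = 0.993). Pfkp differed by 2.24 and 2.22 (interaction 0.02 ± 0.16), Hk1 by 3.20 and 2.94 (interaction 0.26 ± 0.13), and Cycs by 1.16 and 1.39 (interaction -0.23 ± 0.11). Cox7a1 differed by 6.06 and 4.52, and there the interaction passed (adjusted p = 0.000101). Of the 73 respiratory chain genes 63 were higher and 0 lower under PBS, with a median of 0.69, and 37 were called upward by the interaction and 1 downward.

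Another group differed from vector under TNF with little or no difference under PBS. Upp2 differed by 4.30 under TNF and by 0.00 under PBS, G6pc by 3.74 and 0.39, Kynu by 3.75 and 0.18, and Glyctk, a glycerate kinase, by 3.58 and 0.06, and under PBS none of these 4 passed. Hnf4a differed by -0.33 under PBS, opposite to its sign under TNF (adjusted p = 0.0481). Its mean level was 11.77 ± 0.07 (SD, n = 3) in vector and 11.44 ± 0.10 in PGC-1a1 cells under PBS, and 8.99 ± 0.23 and 11.23 ± 0.04 under TNF. G6pc lay at 8.91 ± 0.20 and 9.30 ± 0.30 under PBS and at 6.06 ± 0.38 and 9.80 ± 0.15 under TNF. In both genes the group that stood apart was vector under TNF, although levels set across the treatments carry the difference between the array sets. Complement and coagulation genes also lay on opposite sides under the treatments, with 1 of 27 higher and 13 lower under PBS, and 20 were called upward by the interaction and 0 downward. Under TNF the PGC-1a4 cells differed from vector by 1.70 in G6pc, 2.56 in Glyctk and 1.70 in Hnf4a, all called, and by -0.01 in Upp2, which did not pass. PGC-1a1 exceeded PGC-1a4 by 2.04 in G6pc, 1.02 in Glyctk, 0.54 in Hnf4a and 4.30 in Upp2, all called.

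Downward, the interaction was led by Hspa1b, which was higher by 1.63 ± 0.13 under PBS and lower under TNF. Its mean was 9.36 ± 0.23 (SD, n = 3) in vector and 10.99 ± 0.16 in PGC-1a1 cells under PBS, against 14.56 ± 0.06 and 12.49 ± 0.15 under TNF. All 12 heat shock genes were called downward by the interaction, as were 16 of 26 immediate early genes and 13 of 24 genes of the unfolded protein response, with 0 upward in each of these lists. Klf4 was higher under both treatments, by 2.30 under PBS and 0.93 under TNF. Pdk4 was higher by 1.88 ± 0.11 under PBS. Angpt2, a ligand of the endothelial TIE2 receptor, was higher by 0.70 ± 0.15 under PBS and lower at -1.45 ± 0.15 under TNF.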

How the data were processed

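Total RNA of cultured hepatocytes was read on 18 one-colour Affymetrix mouse arrays, 3 in each of 6 groups. The deposited values are log2 levels per probe set, made by the authors with RMA in affy, per the submitters' processing notes. The sources used here give no versions and do not say which arrays were normalized jointly. RMA equalizes the distribution of values, so a shift of all genes together would not be seen. The table used here is cut off within its last row, which was dropped, leaving 33245 probe sets. Any probe sets that followed that row could not be analysed. Genes and list entries not measured here may therefore be missing because of the cut, and this was not tested. Of these 25951 name 1 gene in the platform annotation, 686 name several and 6608 none, and only the first were used. Symbols were updated by gene ID to RefSeq GRCm38.p6 for 25803 probe sets. A gene was represented by its probe set with the highest mean over the 18 arrays, which gave 15491 genes, 6488 of them with several probe sets. No filter was applied.

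Group means were fitted in limma 3.58.1 (R 4.3.3) over all 18 arrays with 12 residual degrees of freedom and eBayes moderation. Tests are two-sided with Benjamini-Hochberg adjustment, and the procedure was tested on simulated data. The groups come from the array titles. The lists (67, with 1145 of 1420 entries measured), the naming rule and the motifs were chosen with earlier results of these data known. The rule admits the 25 highest and 25 lowest differences without overlap, the 6 list members of smallest p, members opposite to most of their list, every member of a list of up to 12, and the 10 highest and lowest interactions. Of the 134 genes with values in the text 2, Ndufa13 and Atp5c1, fall outside it and were chosen after their values were seen. Alternatives were other moderation, fewer arrays in the fit, array weights, the replicate block, 4 scalings, a filter on dim genes, other choices of probe set, leaving out each array, a minimum fold of 1.5 and a threshold of 0.01.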

Additional observations from a re-analysis of the deposited data

Results flagged for a closer look

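A group of results stands out because the PGC-1a1 difference from vector was not the same under TNF as under PBS. The test was the interaction term in limma, the log2 difference under TNF minus that under PBS, at an adjusted p under 0.05 over all genes. It called 3943 genes, and the genes listed here, all named elsewhere in the text, are among them. Treatment and array set cannot be told apart in it. Each value below is this interaction value, positive where the PGC-1a1 difference was more positive under TNF.

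In genes of the respiratory chain and its assembly it was 1.54 for Cox7a1, 1.12 for Cox11, 0.94 for Ndufaf5, 0.75 for Atp5k, 0.66 for Sdha, 0.64 for Ndufa8, 0.54 for Sdhd, 0.50 for Ndufa5 and 0.47 for Atp5g1, and below 0 for Cox6a2 at -0.48 and Uqcc2 at -0.40. In mitochondrial upkeep it was 1.95 for Sirt3, 1.24 for Esrra, 1.29 for Ppara, 1.13 for Mfn2, 1.0 for Twnk, 0.84 for Timm8b and 0.77 for Mfn1. In fuel oxidation it was 0.98 for Cs, 0.80 for Pdha1, 0.67 for Dlat, -0.35 for Suclg2 and -1.67 for Pdk4.

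In fat handling the value was 3.12 for Plin5, 2.64 for Decr2, 2.33 for Vnn1, 1.97 for Cd36, 1.84 for Slc25a20, 1.81 for Fabp3, 1.73 for Thrsp, 1.42 for Acadvl, 1.35 for Acacb, 1.16 for Cpt1a, 1.12 for Dgat1, 1.10 for Agpat2 and 0.99 for Cpt2. It was -0.82 for Fasn, -0.60 for Eci1, -0.54 for Cat and -0.42 for Fdft1. In sugar and amino acid metabolism it was 4.30 for Upp2, 3.57 for Kynu, 3.52 for Glyctk, 3.35 for G6pc, 3.18 for Pck1, 3.04 for Aspa, 2.88 for Qprt, 2.60 for Ppp1r3b, 1.20 for Ldhb, 1.11 for Slc37a4, -0.49 for Hk2 and -1.35 for Slc2a1, and further 1.59 for Prodh, 1.55 for Nags, 0.93 for Shmt1 and -0.50 for Gldc. For heme and iron-sulfur genes it was 1.26 for Bola3, 0.85 for Isca1 and 0.63 for Alas1.

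For transporters and channels the interaction was 1.88 for Slc47a1, 1.85 for Kcnk1, 1.84 for Slc16a5 and 1.63 for Atp1b1. For liver factors and liver products it was 2.57 for Hnf4a, 1.90 for Nr1i2, 1.74 for F10, 1.19 for Hp, 1.16 for Sult1e1, 1.15 for Crp, -1.32 for Onecut2 and -2.05 for Fst. In signalling and cell death it was 2.53 for Bik, 1.61 for Casp6, 1.02 for Cxcl11, 0.95 for Bcl3, 0.80 for Rbck1, 0.71 for Bak1, 0.56 for Sod2 and 0.44 for Tnfrsf1a, and -0.52 for Nfkbia, -0.56 for Bcl2l1, -0.57 for Vcam1 and -0.59 for Bid.

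Among stress and immediate early genes it was -3.70 for Hspa1b, -1.64 for Pdia4, -1.59 for Fosl1, -1.45 for Hsph1, -1.37 for Klf4, -1.32 for Dnajb1, -1.20 for Slc7a11, -1.17 for Nqo1, -1.13 for Gclm, -0.93 for Hspb1, -0.86 for Klf6 and -0.84 for Hspa8. It was also below 0 for the following genes of the text, at -3.08 for Speer4a, -2.73 for Krt20, -2.47 for Sema3e, -2.29 for Lrp8, -2.15 for Angpt2, -1.91 for Vim, -1.69 for Cd44, -1.68 for Lyve1, -1.62 for Sox9, -1.20 for Col3a1, -0.64 for Krt8 and -0.58 for Krt18. Among cell cycle genes and secreted muscle targets it was 0.96 for Rrm2, 0.71 for Metrnl, 0.72 for Rrm1, -0.52 for Cdk1 and -1.0 for Mcm3.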

How the results depend on the processing

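The alternatives kept each comparison's count of called genes within 1.5 times its value except as follows. The comparison of PGC-1a1 with vector under TNF, with 6394 genes, called 9865 probe sets when every probe set was tested and 2798 genes when a fold of at least 1.5 was asked as well. Under PBS, with 1857 genes, the count was 2842 with array weights, 556 with the fold minimum and 1133 at an adjusted p under 0.01. The interaction, with 3943, gave 2410 with the fold minimum and 2544 at 0.01. PGC-1a1 against PGC-1a4, with 5647, gave 8551 over every probe set and 2399 with the fold minimum. These constructions test more features or ask for more; for the array weights the cause was not tested. Leaving out each array in turn gave 5709 to 6000 genes under TNF, 1353 to 1857 under PBS, 3373 to 3826 for the interaction and 5051 to 5228 against PGC-1a4. With the replicate number as a block the counts were 6332, 1791, 3935 and 5595. Same-numbered PGC-1a1 and vector arrays under TNF did not deviate together (r from -0.039 to 0.024). Under PBS the same r was 0.23, -0.08 and -0.06 for arrays 1, 2 and 3. With 3 arrays per group these values cannot tell whether the numbers pair the samples. The share of higher genes among the calls under TNF was 50.3%, 45.3% after quantile normalization over all arrays and 59.1% with the fold minimum. 2 values that had not passed changed sign. The difference of Alb, 0.03, became -0.00 after quantile normalization within the TNF arrays and -0.03 after cyclic loess, and that of Tnf, -0.08, became 0.01 and 0.04 without vector array 1 or 2 and 0.02 without PGC-1a1 array 2, in a range of -0.28 to 0.04 over the arrays left out. The probe set of largest variance lost the calls of Bak1 (0.22), Bid (-0.36) and Vcam1 (-0.60). The fold minimum moved 59 of 134 counts of list members by over 1.5 times and the 0.01 threshold 21, the other settings between 2 and 17. Signal near background limits the size of a difference for genes below the arrays' lower quartile.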

Other observations

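Several further gene groups differed between PGC-1a1 and vector cells under TNF, to be read against the 20.8% of all genes that were higher and the 20.5% that were lower. Of 19 measured genes of the urea cycle and amino acid breakdown 9 were higher and 3 lower. Against PGC-1a4 the list had 5 higher and 7 lower, while PGC-1a4 had 10 higher and 0 lower against the same vector arrays. Nags, whose product is the activator of the urea cycle's first enzyme, read 11.51, 11.41 and 11.33 with PGC-1a1 and 8.64, 8.80 and 8.54 with vector, a difference of 2.75 ± 0.10. The groups lay apart. Prodh, which starts proline breakdown, was higher by 1.83 ± 0.11 and the serine and glycine enzyme Shmt1 by 2.48 ± 0.11, while Gldc, which cleaves glycine, was lower at -0.97 ± 0.10. Genes of iron-sulfur clusters, heme and iron uptake had 10 of 15 higher and 1 lower. The first enzyme of heme synthesis, Alas1, differed by 1.37 ± 0.09, the cluster assembly factors Bola3 and Isca1 by 1.86 ± 0.09 and 1.59 ± 0.08, and the transferrin receptor Tfrc by 1.65 ± 0.11.

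Cell cycle genes had 10 of 26 lower and 4 higher. The replication helicase subunit Mcm3 was lower at -1.18 ± 0.11 and the kinase Cdk1 at -0.95 ± 0.10, whereas both subunits of ribonucleotide reductase were higher, Rrm1 by 1.64 ± 0.11 and Rrm2 by 1.73 ± 0.10. Rrm2 read 12.20, 12.32 and 12.46 against 10.61, 10.62 and 10.58 in PGC-1a1 and vector arrays. These groups did not overlap. Of 8 angiogenic and secreted genes listed as PGC-1alpha targets of muscle 5 were higher and 1 lower. Metrnl, a secreted factor, differed by 2.17 ± 0.13, and Vegfa, the growth factor of blood vessels, by 0.77 ± 0.09 under TNF and 1.05 under PBS.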
